A study of Homo sapiens with 15 samples.

Results

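The unfolded protein response and endoplasmic reticulum (ER) folding genes were a list of 38 genes taken by symbol for what their products do. All 38 symbols had a row in the LNCaP expression table of 17272 genes, and all 38 were among the 17046 genes tested, which had a mean of at least 0.5 CPM, which are read counts scaled to a common library total. They were divided by role into 3 stress sensors, 5 transcription factors, 2 genes of translation feedback, 9 chaperones of the HSP70 and HSP90 systems with their partners, 2 lectin chaperones, 5 disulfide isomerases, 2 subunits of the translocon and 10 genes of ER-associated degradation.

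LNCaP cells come from a human prostate cancer and respond to androgen, and as a single line they stand for no other tumour. All cells were starved for 2 days in medium with charcoal-stripped serum and then received 1 nM of the synthetic androgen R1881 for 22 h, in 10 libraries with the solvent DMSO (R1881 + DMSO) and in 5 libraries with 2 µM of the antiandrogen enzalutamide (R1881 + enzalutamide). No library lacked R1881, so enzalutamide was compared with androgen alone and not with androgen-free cells. Poly(A) RNA was sequenced, and the libraries held 15830745 to 24316740 reads in genes with DMSO and 21188661 to 25416052 with enzalutamide.

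The ER folds and glycosylates proteins bound for the surface and for secretion, and secretory cells such as prostate luminal epithelium carry much of this machinery. When unfolded proteins accumulate in the ER, the sensors IRE1 (gene ERN1), PERK (gene EIF2AK3) and ATF6 set off the unfolded protein response. IRE1 splices the mRNA of the transcription factor XBP1, PERK phosphorylates the translation factor eIF2 alpha and so favours translation of ATF4, and ATF6 is cut to release a transcription factor, and together these induce chaperones and degradation factors. Gene counts measure mRNA amounts only, and XBP1 splicing, ATF6 cleavage and PERK activity were not measured here.

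Most of these genes were lower with enzalutamide. Of the 38 members, 33 were lower at an adjusted p under 0.05 in limma's test over all genes, against 32.7% of all genes tested. A single member, DDIT3, was higher, against 29.8% of all genes tested. ATF6, ATF4, PPP1R15A and OS9 did not pass the test. With genes under a mean of 5 CPM left out, 32 members were lower and 2 higher, against 4784 lower and 3513 higher of 12164 genes. The deposited CPM columns do not sum to the same total, and when every library was scaled to the same total, 30 members were lower and 3 higher. Of all 17046 genes tested, 4288 were then lower and 6641 higher, against 5577 and 5083 without that scaling. The median log2 fold change was -0.55 over the members and -0.01 over all genes tested, where a fold change is on the scale of log2(CPM + 0.5) and a negative value is lower with enzalutamide. In these bulk samples, less RNA of a gene per cell and fewer cells expressing it cannot be told apart.

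The size of the fall varied widely between members. ERN1, CREB3L2, CREB3L4, DNAJB9, PDIA5, EDEM1, EDEM3 and DERL3, 8 members in all, fell at least 2-fold, as did 4.19% of all genes tested. EDEM1 lay at the limit, and the count was 6 with a pseudocount of 1 and 7 or 8 under the other alternatives. No member rose at least 2-fold, against 3.26% of all genes tested. In 28 members every enzalutamide library was below every DMSO library, against 20.1% of all genes tested, and in 1 member, DDIT3, every enzalutamide library was above, against 17.1%. The 5 members that were lower by the test but whose libraries overlapped were TRIB3, SDF2L1, CALR, SEL1L and EDEM2.

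**Figure D1:**
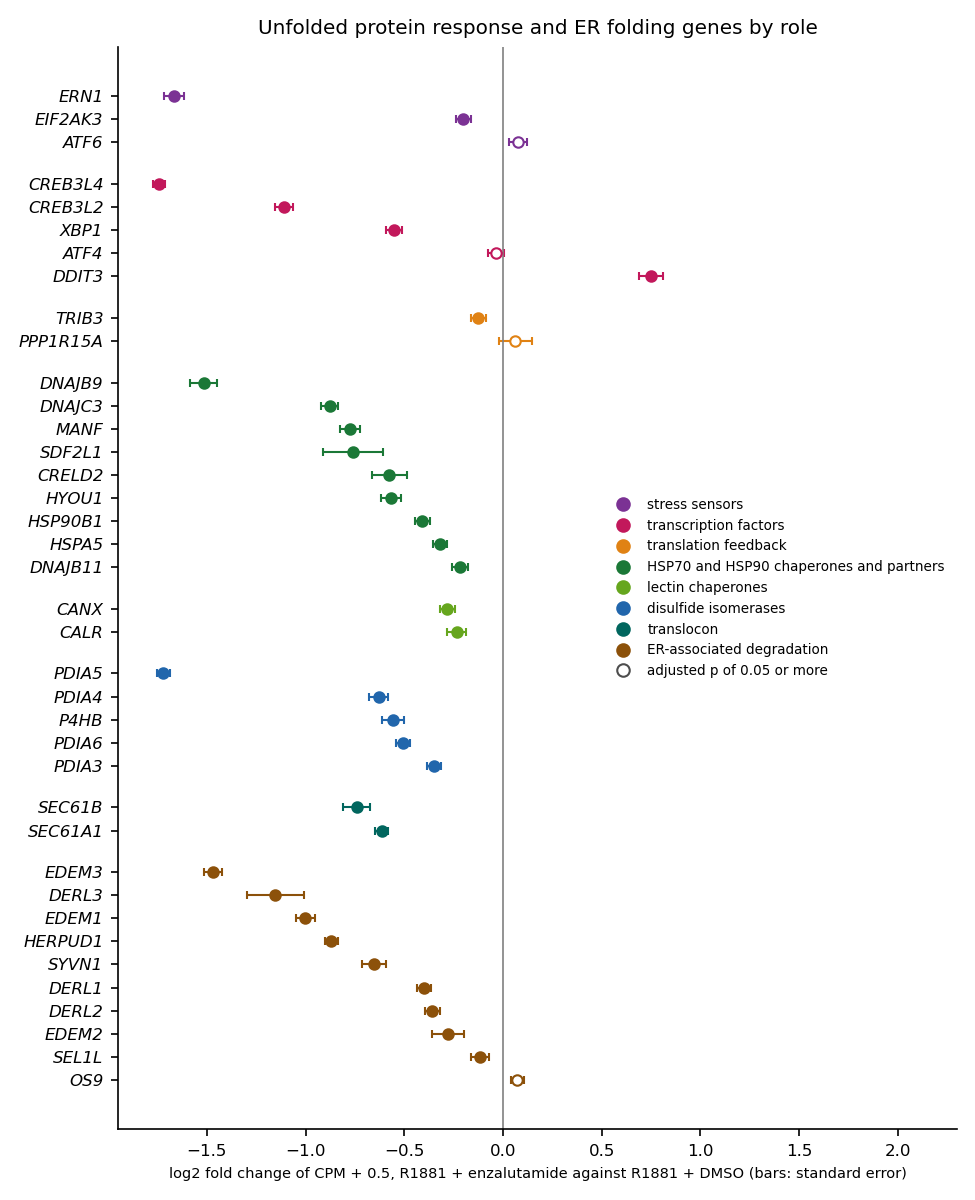
Log2 fold change of CPM + 0.5 for each of the 38 members (points, with bars of 1 standard error from limma), R1881 + enzalutamide (n = 5) against R1881 + DMSO (n = 10), grouped by role, with open points where the adjusted p was 0.05 or more. Values run from -1.74 for CREB3L4 to 0.75 for DDIT3, with 33 filled points left of 0, 1 filled point right of it (DDIT3) and 4 open points.

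Known androgen-induced genes and cell markers were read first as a check of the labels. KLK2, KLK3, TMPRSS2 and FKBP5 were all lower with enzalutamide with no overlap between libraries, with log2 fold changes from -4.99 to -3.55. The 6 markers of LNCaP cells read here (KLK3, HOXB13, KRT8, KRT18, FOLH1 and EPCAM) were all in the table, and their summed level was 4764 to 5914 CPM with DMSO and 2605 to 2658 CPM with enzalutamide, with KLK3, KRT8 and KRT18 lower and HOXB13, FOLH1 and EPCAM higher. The libraries of HOXB13 and of EPCAM overlapped between the groups. Of 10 markers of other cell types, 4 had a row (VWF, COL1A1, COL3A1 and ACTA2), with a summed level of 12.2 to 17.2 CPM with DMSO and 26.5 to 32.5 CPM with enzalutamide. The part of either shift in the members' changes was not tested.

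Among the sensors, the mRNA of ERN1 fell most. ERN1 stood at 103 to 124 CPM in the DMSO libraries, with a median of 112 CPM. With enzalutamide the 5 libraries held 38.1, 34.8, 33.2, 31.5 and 37.3 CPM. The groups were far apart, and the log2 fold change was -1.67 ± 0.05 (SE, limma adjusted p = 4.62e-17). EIF2AK3, which encodes PERK, went from a median of 61.2 CPM (57.9 to 63.2) to 53.6 CPM (49.1 to 55.1), also without overlap but by a log2 fold change of only -0.20 ± 0.04 (limma adjusted p = 7.50e-05). ATF6 did not pass, with 72.4 to 87.2 CPM in DMSO, 79.2 to 89.2 CPM in enzalutamide, and a log2 fold change of 0.08 ± 0.04 (limma adjusted p = 0.142). Its highest enzalutamide library, at 89.2 CPM, lay above every DMSO library, and the others lay within the DMSO range. ATF6 passed as higher with library totals of 1000000 (limma adjusted p = 0.00101), with edgeR (edgeR adjusted p = 0.0112) and with the GC trend removed (limma adjusted p = 0.0269).

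The sensors therefore changed by different amounts. To compare genes without any scaling between libraries, the log2 difference of a pair of members was taken within each library and tested by exact permutation, two-sided, over all 3003 regroupings of the 15 libraries, with p-values adjusted over 30 pairs. ERN1 fell relative to EIF2AK3 by 1.47 ± 0.06 (SE) and relative to ATF6 by 1.74 ± 0.06, and EIF2AK3 fell relative to ATF6 by 0.28 ± 0.04. Each of these had an exact permutation adjusted p of 0.000555, from the smallest p the regroupings can give (0.000333).

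The 5 transcription factors ran from the lowest to the highest change of the list. CREB3L4, a membrane-bound factor of the CREB3 family known for its expression in prostate, fell from a median of 258 CPM (241 to 275) to 76.7 CPM. Its 5 enzalutamide libraries were nearly equal, at 76.0, 76.6, 77.7, 77.3 and 76.7 CPM, and all lay below every DMSO library. The log2 fold change was -1.74 ± 0.03 (limma adjusted p = 5.39e-21). CREB3L2, a relative that helps to enlarge the secretory pathway, fell from a median of 113 CPM to 51.2 CPM (log2 fold change -1.11 ± 0.05). CREB3L4 fell further than CREB3L2 by 0.63 ± 0.05 on the log2 scale (exact permutation adjusted p = 0.000555).

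XBP1, the factor that IRE1 activates by splicing, fell by less. It was at 181 to 214 CPM with DMSO, with a median of 198 CPM, and at 138, 122, 142, 133 and 135 CPM in the enzalutamide libraries. The groups did not overlap and the log2 fold change was -0.55 ± 0.04 (limma adjusted p = 1.50e-10), about the median of the members. ATF4, whose protein is controlled mainly by translation, lay at 315 to 375 CPM with DMSO and at 324 to 358 CPM with enzalutamide, all enzalutamide libraries within the range of the DMSO libraries. Its log2 fold change of -0.03 ± 0.04 did not pass (limma adjusted p = 0.474), and XBP1 fell relative to ATF4 by 0.52 ± 0.05 (exact permutation adjusted p = 0.000555).

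DDIT3 was the exception in direction. It encodes CHOP, a factor downstream of PERK and ATF4 that is known for promoting cell death in prolonged stress. DMSO libraries held 13.0 to 17.2 CPM, with a median of 15.2 CPM, and the enzalutamide libraries held 28.3, 25.3, 25.2, 25.6 and 22.9 CPM. Every enzalutamide library was above every DMSO library, and the log2 fold change was 0.75 ± 0.06 (limma adjusted p = 9.68e-10). DDIT3 rose relative to ATF4 by 0.78 ± 0.05 on the log2 scale (exact permutation adjusted p = 0.000555).

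The exons of DDIT3 overlap those of the protein-coding genes MARS1 and MBD6 on the opposite strand and those of a protein-coding gene model without a symbol on the same strand. The kit marks strand, but no source used here says whether the counting did. MBD6 was at 29.998 CPM with DMSO and 39.6 CPM with enzalutamide (log2 fold change 0.40 ± 0.08), and MARS1, under its older symbol MARS, was at 191 and 159 CPM (log2 fold change -0.27 ± 0.04). The part of reads from these genes in the DDIT3 counts was not tested.

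Translation feedback moved little. TRIB3, a pseudokinase induced by ATF4 and CHOP that restrains them, went from a median of 40.4 to 37.3 CPM (log2 fold change -0.13 ± 0.04, limma adjusted p = 0.00781), with overlapping libraries. PPP1R15A, which encodes GADD34 and brings a phosphatase to eIF2 alpha, was low at 3.92 to 5.27 CPM with DMSO and 4.35 to 5.54 CPM with enzalutamide, which was 63 to 119 reads per library. It did not pass (log2 fold change 0.06 ± 0.08, limma adjusted p = 0.541).

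**Figure D2:**
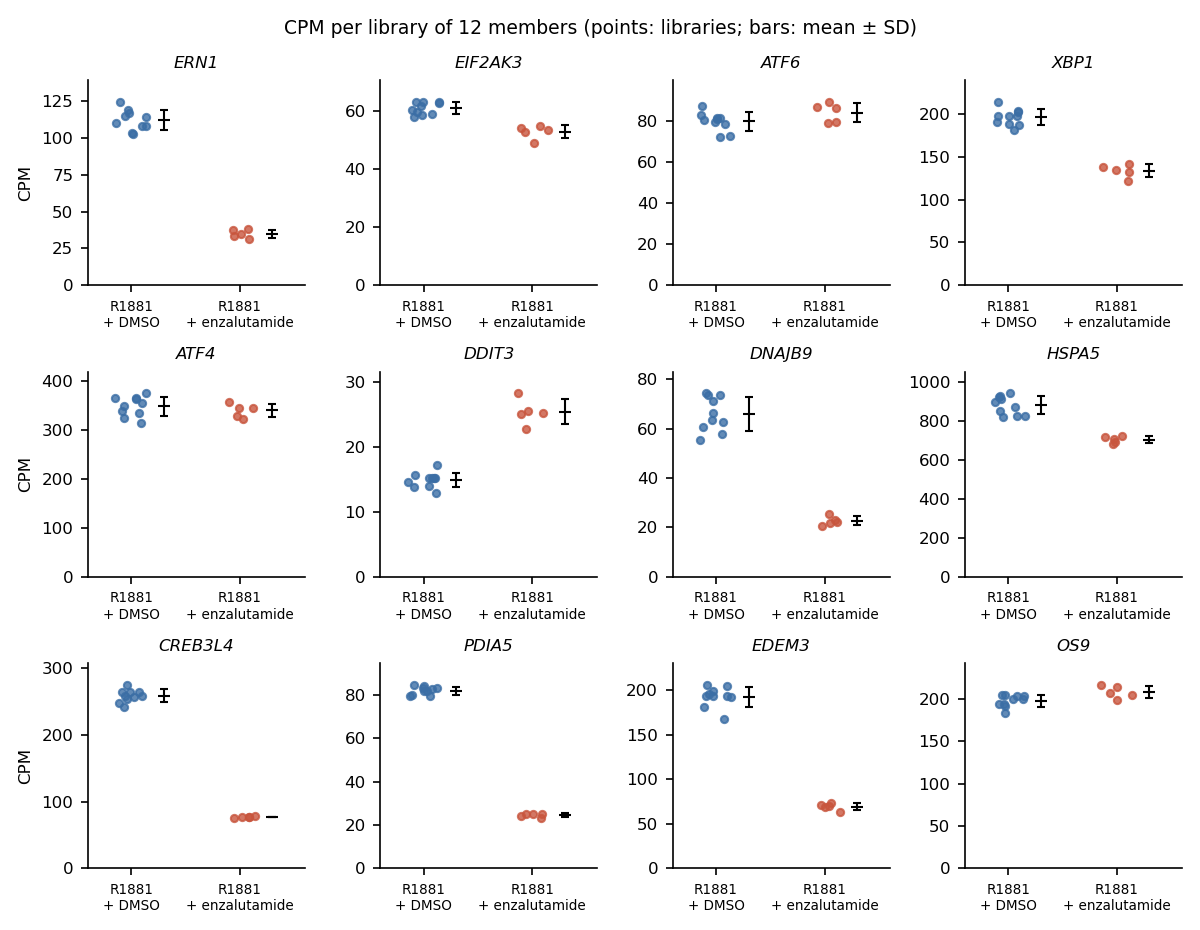
CPM in each library for 12 members, with the 10 R1881 + DMSO libraries (blue points) and the 5 R1881 + enzalutamide libraries (red points) on a linear axis from 0, and bars of mean ± SD beside each group. The groups are apart for ERN1, EIF2AK3, XBP1, DNAJB9, HSPA5, CREB3L4, PDIA5 and EDEM3 (lower) and for DDIT3 (higher), and overlap for ATF6, ATF4 and OS9.

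All 9 genes of the HSP70 and HSP90 systems were lower, 8 of them without overlap, against 32.7% and 20.1% of all genes tested. HSPA5, which encodes the main ER HSP70 chaperone BiP, fell from a median of 884 CPM (819 to 940) to 706 CPM, with 717, 683, 706, 722 and 692 CPM in the 5 enzalutamide libraries. The log2 fold change was -0.32 ± 0.04 (limma adjusted p = 1.59e-07). HSP90B1, which encodes the ER HSP90 chaperone GRP94, went from 1267 CPM (1186 to 1381) to 966 CPM (899 to 1010), a log2 fold change of -0.41 ± 0.04. HYOU1, a nucleotide exchange factor for BiP, went from 450 to 292 CPM at the median (log2 fold change -0.57 ± 0.05). The abundant chaperones thus fell by a modest share, 20.2% for HSPA5, 23.7% for HSP90B1 and 35.0% for HYOU1 at the median.

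The J-domain proteins that direct BiP to its clients differed among themselves. DNAJB9, known as ERdj4, which also binds IRE1, fell from a median of 65.0 CPM (55.5 to 74.3) to 22.3 CPM. Its enzalutamide libraries held 21.9, 20.6, 22.3, 25.6 and 23.0 CPM, and the log2 fold change was -1.52 ± 0.07 (limma adjusted p = 5.78e-14). DNAJC3, which encodes p58IPK, an inhibitor of PERK, went from 140 to 78.2 CPM (log2 fold change -0.88 ± 0.04), and DNAJB11, or ERdj3, from 66.8 to 56.5 CPM (log2 fold change -0.22 ± 0.04). All 3 were without overlap. DNAJB9 fell relative to DNAJB11 by 1.30 ± 0.06 and relative to DNAJC3 by 0.64 ± 0.07 on the log2 scale (exact permutation adjusted p = 0.000555 for each).

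Small secreted or resident partners of BiP were lower as well. MANF, a factor released in ER stress, went from a median of 110 CPM (97.1 to 122) to 61.8 CPM (60.5 to 66.7), a log2 fold change of -0.78 ± 0.05. CRELD2, an ER protein often induced together with MANF, went from 29.3 CPM (23.8 to 39.7) to 19.2 CPM (18.6 to 22.8), a log2 fold change of -0.58 ± 0.09. SDF2L1, which binds J-domain proteins, was low and scattered, at 4.19 to 9.62 CPM with DMSO and 2.70, 4.37, 3.502, 3.46 and 3.29 CPM with enzalutamide. Of these enzalutamide libraries 1 lay within the DMSO range, and the SDF2L1 log2 fold change was -0.76 ± 0.15 (limma adjusted p = 0.000213).

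Promoters of the members were searched for the ER stress response elements through which ATF6 and XBP1 act. The sequences were those of RefSeq on GRCh38.p14, from 250 bases before to 50 bases after the start site, and 35 of the 38 members had one. The ER stress response element (ERSE) was searched as CCAAT, any 9 bases, CCACG, and the second form (ERSE-II) as ATTGG, any base, CCACG, on both strands. An ERSE stood in 6 members (XBP1, HSPA5, HSP90B1, CRELD2, CALR and CANX). Of all 27305 promoters 22 (0.0806%) held one, and of the 9856 promoters of genes tested here 14 (0.142%). An ERSE-II stood in 3 members (HYOU1, SDF2L1 and HERPUD1), in 15 of all promoters (0.0549%) and in 11 of those of genes tested (0.112%). These elements were chosen as known ones of the ER stress response, so the counts are a description and were not tested. The elements are shown for the members that held one, and most members with a promoter held neither form. Each is written 5′ to 3′ in the orientation of the motif, with the letters searched in capitals and the bases between them in lower case, and the position of the first base in the direction of the gene is counted from the start site.
XBP1 ERSE at -52: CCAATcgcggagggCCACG
HSPA5 ERSE at -66: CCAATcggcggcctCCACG
HSP90B1 ERSE at -194: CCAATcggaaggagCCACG
HSP90B1 ERSE at -89, reverse strand: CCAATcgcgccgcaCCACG
CRELD2 ERSE at -80, reverse strand: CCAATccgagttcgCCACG
CALR ERSE at -225, reverse strand: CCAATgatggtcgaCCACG
CANX ERSE at -151: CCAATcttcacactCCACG
HYOU1 ERSE-II at -185 and at -79, reverse strand: ATTGGaCCACG
SDF2L1 ERSE-II at -188, reverse strand: ATTGGtCCACG
HERPUD1 ERSE-II at -117: ATTGGgCCACG

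Whole promoter windows are printed for 4 of these members, a sensor target (XBP1), the main chaperone (HSPA5), the member with a pair of ERSE-II elements (HYOU1) and a degradation gene (HERPUD1), so that the elements can be read in their place. Capitals mark the elements, on the strand of the gene.
XBP1, chr22:28800520-28800819, minus strand: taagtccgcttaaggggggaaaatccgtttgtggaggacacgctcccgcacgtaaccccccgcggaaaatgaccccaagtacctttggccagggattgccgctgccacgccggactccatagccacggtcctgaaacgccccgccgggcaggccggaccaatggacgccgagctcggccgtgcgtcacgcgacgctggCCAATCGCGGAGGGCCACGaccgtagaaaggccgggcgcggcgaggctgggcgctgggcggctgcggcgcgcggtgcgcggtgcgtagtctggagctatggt
HSPA5, chr9:125241294-125241593, minus strand: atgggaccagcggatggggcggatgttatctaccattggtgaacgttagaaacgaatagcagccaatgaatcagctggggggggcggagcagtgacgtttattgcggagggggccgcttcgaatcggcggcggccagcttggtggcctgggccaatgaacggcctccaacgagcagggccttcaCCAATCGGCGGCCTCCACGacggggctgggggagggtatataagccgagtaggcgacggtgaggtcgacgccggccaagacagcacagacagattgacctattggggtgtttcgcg
HYOU1, chr11:119057156-119057455, minus strand: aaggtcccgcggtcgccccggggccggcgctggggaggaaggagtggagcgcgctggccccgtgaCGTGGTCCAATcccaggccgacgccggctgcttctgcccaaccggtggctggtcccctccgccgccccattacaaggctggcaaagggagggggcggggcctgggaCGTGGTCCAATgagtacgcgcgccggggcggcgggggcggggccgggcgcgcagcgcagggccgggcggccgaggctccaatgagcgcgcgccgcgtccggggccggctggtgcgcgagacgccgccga
HERPUD1, chr16:56931892-56932191, plus strand: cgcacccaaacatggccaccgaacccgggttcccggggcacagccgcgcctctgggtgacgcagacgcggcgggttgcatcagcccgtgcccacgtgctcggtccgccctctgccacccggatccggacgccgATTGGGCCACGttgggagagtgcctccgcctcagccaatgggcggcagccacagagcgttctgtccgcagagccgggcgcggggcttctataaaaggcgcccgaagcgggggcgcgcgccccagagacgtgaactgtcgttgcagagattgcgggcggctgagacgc

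The 9 members with an ERSE or an ERSE-II had log2 fold changes from -0.87 for HERPUD1 to -0.23 for CALR and were all lower, as were 30 of the 35 members with a promoter. Among the members that fell at least 2-fold, DERL3 had no promoter sequence here. The others, CREB3L4, PDIA5, ERN1, DNAJB9, EDEM3, CREB3L2 and EDEM1, did not hold these letters in their window. Of the other motifs searched, the core of the unfolded protein response element that XBP1 binds (TGACGTG) stood in 1 member, HYOU1, where it overlaps an ERSE-II. It stood in 2.00% of all promoters and 2.61% of those of genes tested. The ATF4 element (TGATG, any base, AA) stood in HERPUD1 alone among the members, in 3.67% of all promoters and in 1.58% of those of genes tested. The androgen response half-site (AGAACA) stood in ATF4 alone among the members, in 14.9% of all promoters and in 8.64% of those of genes tested. A match describes letters in this window and shows no binding. A window without a match says nothing about elements elsewhere or about forms with other letters.

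The lectin chaperones, which hold newly made glycoproteins, fell slightly. CALR, or calreticulin, went from a median of 1399 CPM (1207 to 1493) to 1144 CPM, and CANX, or calnexin, from 877 CPM (818 to 924) to 730 CPM. The enzalutamide libraries of CALR held 1251, 1219, 1144, 1132 and 1137 CPM, of which 2 lay within the DMSO range, while those of CANX lay below it at 664 to 754 CPM. Log2 fold changes were -0.23 ± 0.05 for CALR (limma adjusted p = 0.000233) and -0.28 ± 0.04 for CANX. The difference between them was 0.05 ± 0.06 and did not pass (exact permutation adjusted p = 0.467).

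All 5 disulfide isomerases were lower, against 32.7% of all genes tested, and 1 of them stood apart. PDIA5 fell from a median of 82.1 CPM, with a narrow range of 79.3 to 84.5 CPM over the 10 DMSO libraries, to 24.9, 25.1, 23.2, 25.1 and 24.2 CPM with enzalutamide. The log2 fold change was -1.72 ± 0.03 (limma adjusted p = 1.74e-20). The widespread isomerases P4HB, PDIA3, PDIA4 and PDIA6 had log2 fold changes of -0.56 ± 0.06, -0.35 ± 0.04, -0.63 ± 0.05 and -0.51 ± 0.04, each without overlap. PDIA5 fell further than each of these, by 1.09 ± 0.05 relative to PDIA4 up to 1.37 ± 0.04 relative to PDIA3 (exact permutation adjusted p = 0.000555 for all 4 pairs). SEC22A, whose exons overlap those of PDIA5 on the same strand, was at 18.8 CPM with DMSO and 18.7 CPM with enzalutamide.

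Among the widespread isomerases the differences were small. PDIA3, a partner of the lectin chaperones that acts on glycoproteins, fell least, and P4HB, PDIA4 and PDIA6 fell relative to it by 0.21 ± 0.08, 0.28 ± 0.06 and 0.16 ± 0.03 on the log2 scale (exact permutation adjusted p = 0.0248, 0.0019 and 0.000999). The difference from P4HB did not pass without enzalutamide replicate 1, 3 or 4 (exact permutation adjusted p = 0.0611, 0.0530 and 0.0553). P4HB and PDIA4 differed by 0.07 ± 0.03 (exact permutation adjusted p = 0.0411), a call lost without any 1 of DMSO replicates 1, 2, 3, 7, 9 and 10 and enzalutamide replicates 2 and 5 (exact permutation adjusted p from 0.0507 to 0.131). P4HB and PDIA6 differed by 0.05 ± 0.06, which did not pass (exact permutation adjusted p = 0.388).

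The translocon subunits fell by a similar amount. SEC61A1, which forms the channel through which proteins enter the ER, went from a median of 788 CPM (725 to 806) to 502 CPM (489 to 523), a log2 fold change of -0.61 ± 0.03 (limma adjusted p = 5.86e-13). SEC61B, a small subunit of the same channel, went from 90.7 CPM (84.4 to 113) to 57.2 CPM (47.8 to 59.7), a log2 fold change of -0.74 ± 0.07. The difference of 0.13 ± 0.08 between them did not pass (exact permutation adjusted p = 0.125).

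ER-associated degradation returns misfolded proteins to the cytosol for the proteasome, and 9 of its 10 members were lower, 7 without overlap. Of all genes tested, 32.7% were lower, and 20.1% lay below without overlap. The EDEM proteins, which trim mannose from misfolded glycoproteins to mark them for degradation, fell by unequal amounts. EDEM3 went from a median of 193 CPM (167 to 206) to 69.7 CPM, with 70.5, 62.8, 69.7, 73.5 and 68.8 CPM in the enzalutamide libraries, and its log2 fold change was -1.47 ± 0.05 (limma adjusted p = 5.85e-17). EDEM1 went from 142 to 70.3 CPM (log2 fold change -1.001 ± 0.05), and EDEM2 from 22.1 CPM (17.2 to 24.96) to 17.4 CPM (15.8 to 19.3), with overlap and a log2 fold change of -0.28 ± 0.08 (limma adjusted p = 0.00447). All 3 pairs of EDEM genes differed, with EDEM3 falling relative to EDEM1 by 0.47 ± 0.02 and relative to EDEM2 by 1.19 ± 0.11, and EDEM1 relative to EDEM2 by 0.72 ± 0.11 (exact permutation adjusted p = 0.000555 for each).

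The ubiquitin ligase complex at the ER membrane changed in its parts by different amounts. SYVN1, the ligase HRD1, went from a median of 65.8 CPM (57.9 to 76.9) to 39.6 CPM, with enzalutamide libraries at 39.6, 46.7, 41.3, 39.3 and 39.6 CPM and a log2 fold change of -0.66 ± 0.06. SEL1L, the scaffold of that ligase, went only from 191 CPM (162 to 200) to 172 CPM (165 to 184), with overlap (log2 fold change -0.12 ± 0.04, limma adjusted p = 0.0276). SYVN1 fell relative to SEL1L by 0.54 ± 0.10 (exact permutation adjusted p = 0.000555). The SEL1L call was lost without enzalutamide replicate 2, 3 or 5 (limma adjusted p = 0.0784, 0.0599 and 0.0571).

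HERPUD1, which organises the ligase complex, went from a median of 195 CPM (191 to 211) to 107 CPM (105 to 117), a log2 fold change of -0.87 ± 0.03 (limma adjusted p = 3.17e-15) without overlap. OS9, a lectin that delivers glycoproteins to the ligase, did not pass, at 184 to 205 CPM with DMSO and 199 to 217 CPM with enzalutamide, and was the one degradation member with a positive log2 fold change (0.07 ± 0.03, limma adjusted p = 0.0560). OS9 passed as higher without DMSO replicate 1 or 6 or enzalutamide replicate 3 (limma adjusted p = 0.0469, 0.0434 and 0.0310).

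The derlins, membrane proteins of the path out of the ER, were lower as well. DERL1 went from a median of 104 to 78.6 CPM (log2 fold change -0.40 ± 0.03) and DERL2 from 62.2 to 49.0 CPM (log2 fold change -0.36 ± 0.04), both without overlap, and their difference of 0.04 ± 0.04 did not pass (exact permutation adjusted p = 0.318), though with DMSO libraries 51 to 55 only it did (exact permutation adjusted p = 0.0216). DERL3, the derlin best known from secretory tissues, was close to the limit of detection, at 1.497 to 2.83 CPM with DMSO and 0.745, 0.791, 0.409, 0.404 and 0.941 CPM with enzalutamide, with 9 to 56 reads per library. It fell without overlap (log2 fold change -1.15 ± 0.14, limma adjusted p = 6.02e-07), and on so few reads the size of the fall is uncertain and the pseudocount lowers it.

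**Figure D3:**
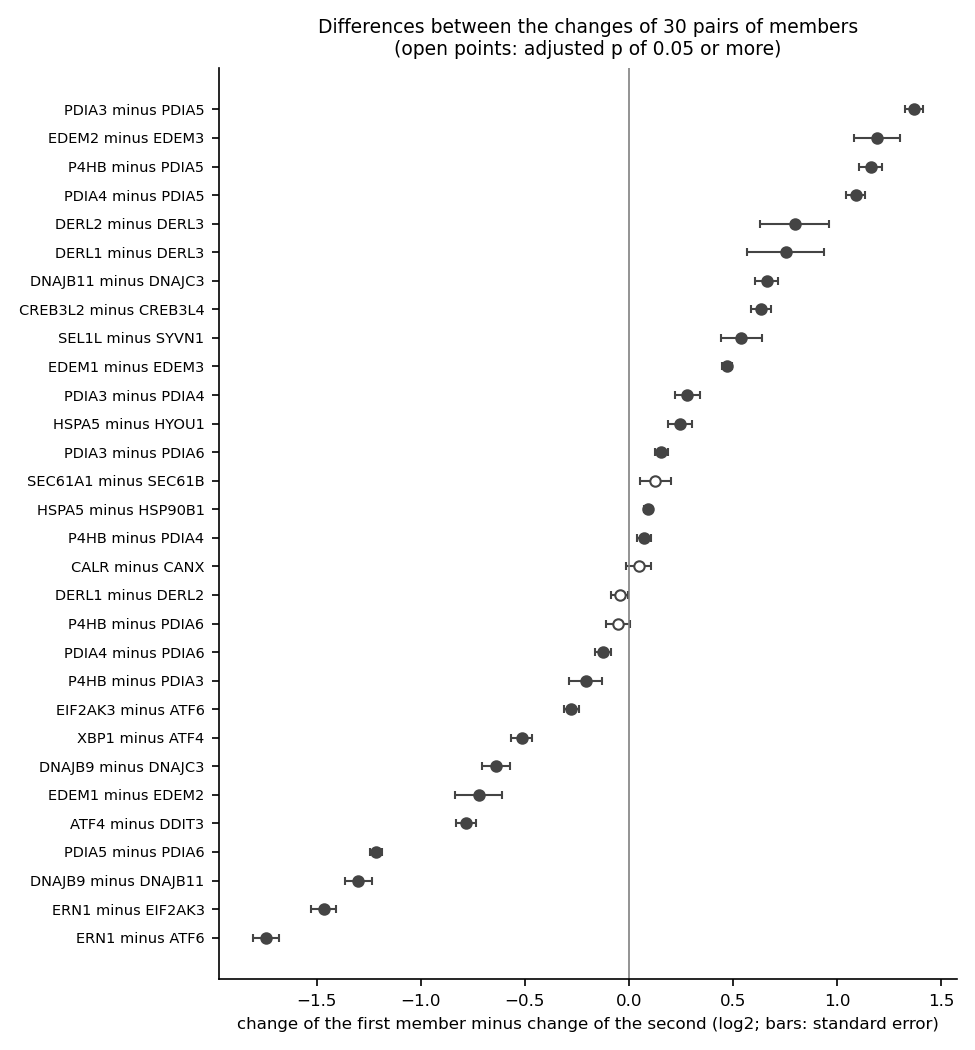
Difference between the log2 fold changes of the 2 genes of each of 30 pairs of members, measured within libraries (points, with bars of 1 standard error from the spread over libraries, n = 10 and 5), with open points where the exact permutation adjusted p was 0.05 or more. Of the pairs, 26 differed and 4 did not pass (SEC61A1 and SEC61B, CALR and CANX, DERL1 and DERL2, P4HB and PDIA6), and the range is -1.74 for ERN1 minus ATF6 to 1.37 for PDIA3 minus PDIA5.

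Across all 30 pairs, 26 differed at an adjusted p under 0.05, and in 18 the libraries of the groups did not overlap. Many pairs share a gene, so they are not separate results. Pairs of genes outside the list were not tested, so the count cannot be set against a share over all genes.

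Levels between genes were compared per length, as CPM per kilobase of the canonical transcript. CALR was highest in both groups, at 729 ± 52.7 CPM per kilobase (SD, n = 10) with DMSO and 619 ± 28.9 (SD, n = 5) with enzalutamide, followed by HSP90B1 (459 and 346) and P4HB (441 and 299). DERL3 was lowest, at 0.669 and 0.213 CPM per kilobase. The order of the 38 genes kept its ends, and the genes that fell most moved down within it, with CREB3L4 going from rank 11 to rank 16, PDIA5 from 18 to 26, DNAJB9 from 22 to 32 and EDEM3 from 21 to 31. DDIT3 went from rank 29 to rank 19. Ranks of neighbours whose levels differ by less than their SD carry no order, as for HSPA5 (224 ± 11.9) and SEC61A1 (217 ± 8.88) with DMSO.

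**Figure D4:**
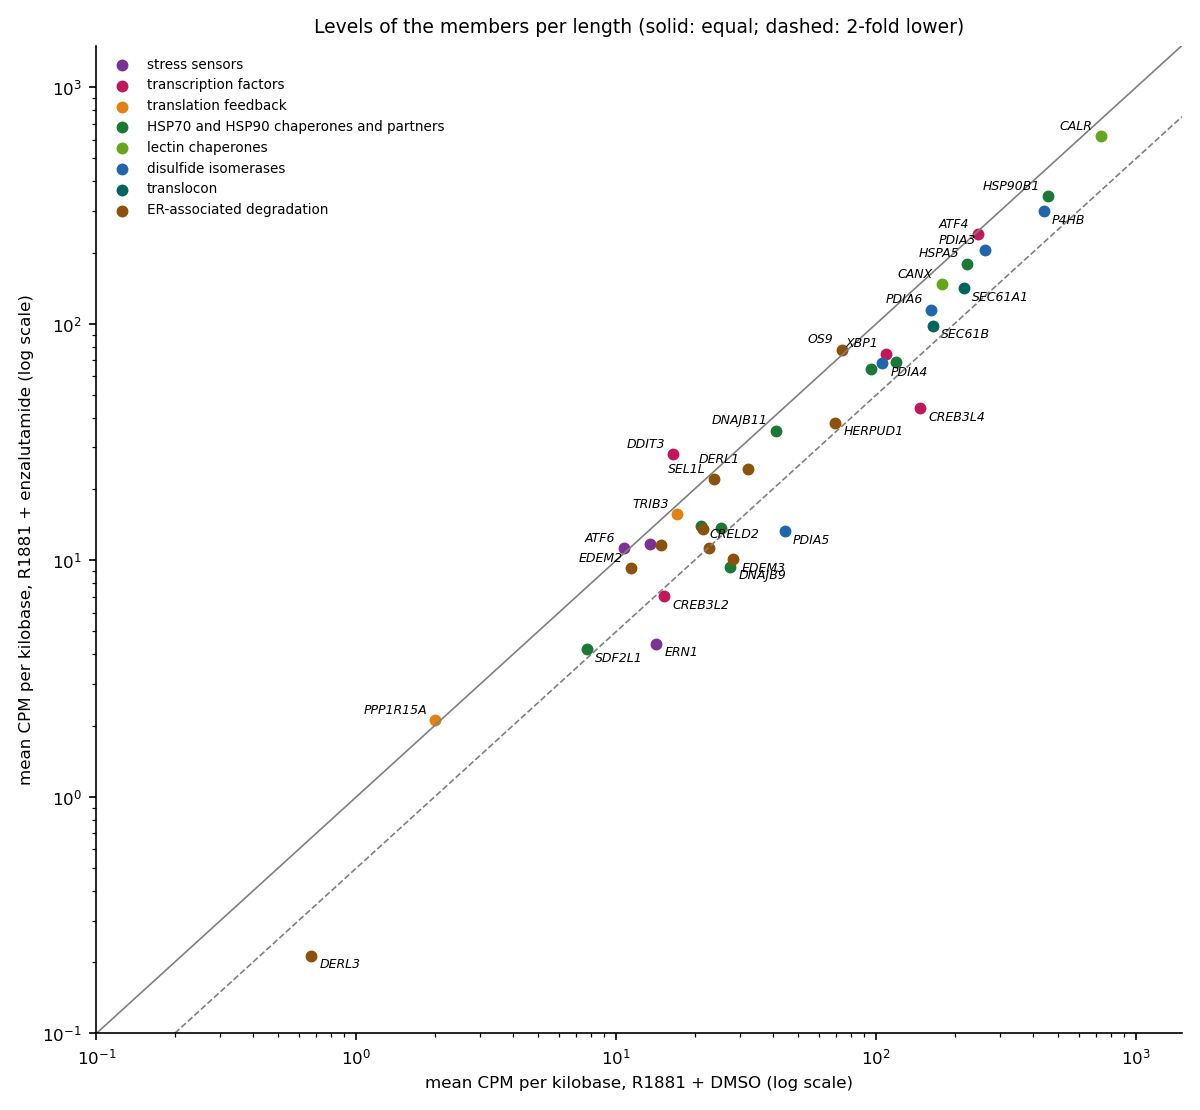
Mean CPM per kilobase of canonical transcript for the 38 members, R1881 + DMSO (horizontal) against R1881 + enzalutamide (vertical), both on log axes, coloured by role, with a solid line for equal levels and a dashed line for a 2-fold lower level. CALR (729 and 619) is highest, DERL3 (0.669 and 0.213) lowest, and DDIT3 lies clearly above the solid line, while 7 members in crowded places carry no label.

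The spread between libraries was small for most members. The coefficient of variation of CPM over libraries had a median of 5.73% with DMSO (2.29 to 28.3%) and 5.01% with enzalutamide (0.840 to 36.6%), highest in SDF2L1 with DMSO and in DERL3 with enzalutamide. The DMSO libraries carry label numbers 51 to 55 and 71 to 75 and the enzalutamide libraries 81 to 85, so no number series holds both treatments and the series and the treatment cannot be told apart. Within DMSO, the members were higher in series 71 to 75 than in 51 to 55 by a median of 0.09 on the log2 scale, against -0.01 over all genes tested. Single members ran from -0.12 to 0.49, in SDF2L1, and all 9 HSP70 and HSP90 genes were higher, by 0.02 to 0.49. With 51 to 55 only and 71 to 75 only, log2 fold changes were -0.43 and -0.73 for CRELD2, -0.15 and -0.32 for CALR, and -0.28 in both for CANX. For SEL1L the fall was smaller with 71 to 75 only, at -0.06. With DMSO libraries 51 to 55 alone 31 members were lower, against 5461 of all 17046 genes tested. With 71 to 75 alone 32 members were lower, against 5235 of all genes tested.

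Genes around the members were described by further lists, of the ER and of stress signalling and chaperones outside it. The counts of each list stand against 32.7% lower and 29.8% higher among all genes tested. Of 35 other ER chaperones and oxidases tested, 22 were lower, 5 higher and 8 did not pass (median log2 fold change -0.24). DNAJC10, a disulfide reductase with a J-domain, went from 211 ± 10.5 to 106 ± 5.66 CPM (SD, n = 10 and 5), ERO1A, the oxidase that recharges disulfide isomerases, from 39.7 ± 2.09 to 21.2 ± 1.45 CPM, and HSPA13 from 82.0 ± 5.14 to 44.2 ± 3.86 CPM. The higher genes included QSOX1, a sulfhydryl oxidase (109 ± 10.2 to 181 ± 17.5 CPM), FKBP9 (39.9 ± 1.74 to 60.1 ± 3.22 CPM) and the collagen chaperone SERPINH1, at a low level (0.841 ± 0.245 to 2.33 ± 0.225 CPM).

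Of 36 other ER-associated degradation factors, 23 were lower, 6 higher and 7 did not pass (median log2 fold change -0.21). UBE2J1, a ubiquitin-conjugating enzyme of the ER membrane, fell by 1.10 ± 0.04 on the log2 scale, SELENOS by 0.83 ± 0.04 and the signal peptide peptidase HM13 by 0.65 ± 0.05. MAN1A1, a mannosidase of the Golgi, rose from 2.08 ± 0.483 to 13.1 ± 0.916 CPM, and SVIP, an inhibitor of degradation that binds the ATPase VCP, rose from 220 ± 16.4 to 465 ± 28.9 CPM. ERLIN2 rose by a log2 fold change of 0.36 ± 0.04.

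Most genes of entry, glycan transfer and exit were lower. Of 23 genes of protein entry into the ER, 18 were lower and 5 did not pass, led by SSR3 (log2 fold change -1.13 ± 0.04), SEC11C (-1.04 ± 0.04) and SPCS3 (-1.003 ± 0.04), parts of the translocon-associated complex and of signal peptidase. Of 19 genes of glycan transfer and glycoprotein quality control, 14 were lower and 1 higher, with LMAN1, a cargo receptor, at -0.83 ± 0.04, and the oligosaccharyltransferase subunits RPN1 at -0.70 ± 0.03 and STT3A at -0.65 ± 0.04, and with KRTCAP2, the 1 higher gene, at 0.26 ± 0.08. The libraries of KRTCAP2 overlapped, and its call was lost with a replicate block (limma adjusted p = 0.0857) and with DMSO libraries 71 to 75 only (limma adjusted p = 0.0683). Of 35 genes of ER to Golgi traffic, 32 were lower and 1 higher, with the coat protein SEC24D at -1.29 ± 0.04, the retrieval receptor KDELR2 at -0.98 ± 0.03 and TMED9 at -0.93 ± 0.05. The coat protein SEC23A was higher at 0.23 ± 0.04, with overlapping libraries.

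Genes of stress signalling beyond the members moved in both directions. Of 14 other sensors and transcription factors, 6 were lower, 2 higher and 6 did not pass. That was 42.9% lower and 14.3% higher, against 32.7% and 29.8% of all genes tested. Those lower included the secretory cell factor BHLHA15 at a very low level (1.17 ± 0.696 to 0.196 ± 0.119 CPM), WFS1 (log2 fold change -0.58 ± 0.11) and the protease MBTPS2 that cuts ATF6 (-0.52 ± 0.05), with TXNIP (1.32 ± 0.11) and ATF6B (0.43 ± 0.08) higher. The libraries of BHLHA15 and of WFS1 overlapped between the groups. Of 36 targets of ATF4 in the integrated stress response, 16 were lower, 8 higher and 12 did not pass, with a median of -0.07, so that 44.4% were lower and 22.2% higher, against 32.7% and 29.8% of all genes tested. VLDLR (-1.48 ± 0.06), TARS1 (-0.62 ± 0.03) and MTHFD2 (-0.54 ± 0.04) led those that fell, and SLC7A5 (1.02 ± 0.11), GDF15 (0.90 ± 0.13, with overlapping libraries) and KLHL24 (0.83 ± 0.05) those that rose.

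Of 12 genes that encode the subunits of eIF2, its kinases, its exchange factor and a partner of its phosphatase, 8 were lower and 2 higher. PPP1R15B, the constitutive partner of the eIF2 alpha phosphatase, fell from 147 ± 8.35 to 83.9 ± 3.58 CPM, EIF2S1, which encodes eIF2 alpha itself, from 244 ± 13.5 to 171 ± 8.39 CPM, and EIF2B4 from 55.2 ± 3.88 to 39.4 ± 2.63 CPM. EIF2AK1 and EIF2S3 were both higher by 0.13 on the log2 scale, with libraries that overlapped between the groups.

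ER-phagy receptors, which bring pieces of the ER to the lysosome, were the list with the fewest lower genes, at 1 of 8 lower, 4 higher and 3 that did not pass. TEX264 was lower (log2 fold change -0.62 ± 0.06), and RETREG1 (1.00 ± 0.05), CALCOCO1 (0.78 ± 0.05) and RTN3 (0.21 ± 0.04) were higher. Of 31 chaperones of the cytosol and mitochondria, 21 were lower and 2 higher, with a median log2 fold change of -0.18, led by BAG3 (-0.47 ± 0.05), TCP1 (-0.47 ± 0.04) and STIP1 (-0.43 ± 0.03), while HSPB8 (1.21 ± 0.08) and DNAJB4 (0.50 ± 0.06) were higher.

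**Figure D5:**
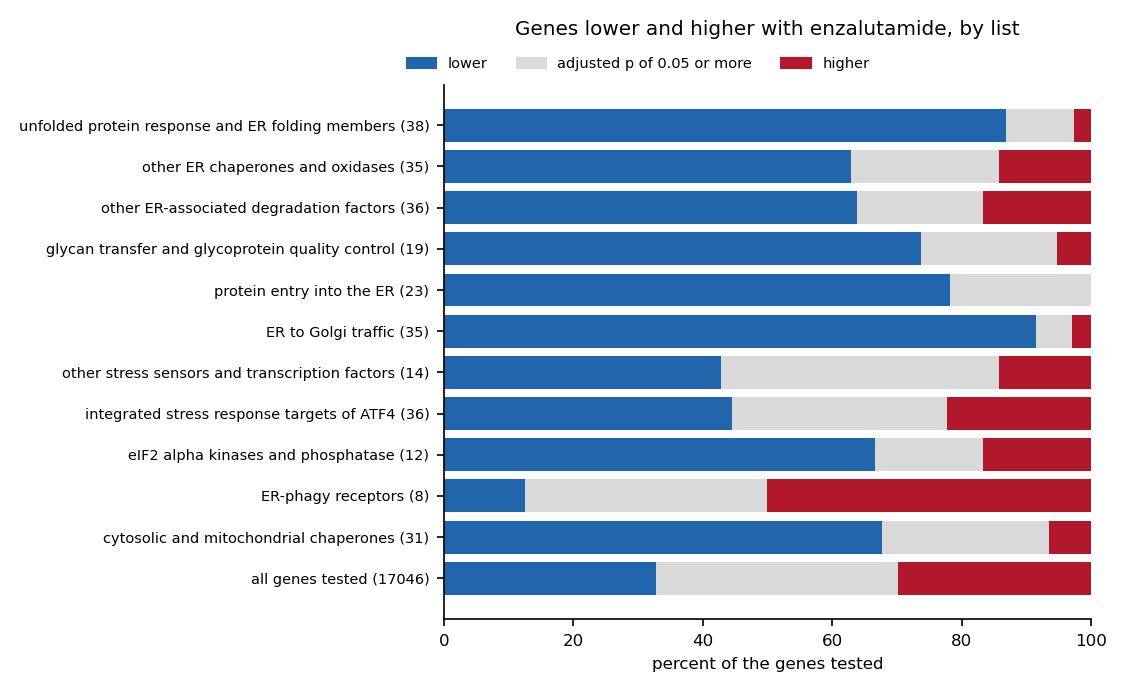
Percent of the genes tested in each list that were lower (blue), higher (red) or at an adjusted p of 0.05 or more (grey) with enzalutamide, with the number tested in brackets and all 17046 genes as the last bar. The members (33 of 38 lower) and the ER to Golgi list (32 of 35 lower) have the largest lower shares, the ER-phagy receptors (4 of 8 higher) the largest higher share, and differences between the lists were not tested.

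Some counts rest on reads that another gene could share. The exons of 21 members overlap those of another annotated gene, for 15 of them a protein-coding one, and XBP1, ATF4, HSPA5 and PDIA3 have pseudogenes named after them. Among the members that fell at least 2-fold, CREB3L4 overlaps SLC39A1 (log2 fold change -0.33 ± 0.04) and JTB (-0.09 ± 0.04). DERL3 overlaps SMARCB1 (-0.17 ± 0.05) and PDIA5 overlaps SEC22A (-0.00 ± 0.06), and each of these changes was smaller than that of the member. SMARCB1 was at 75.3 CPM with DMSO, against 2.07 CPM for DERL3. ERN1 and EDEM1 overlap noncoding genes on the opposite strand. The part of reads from any of these genes in the members' counts was not tested.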

How the data were processed

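Poly(A) RNA of 15 LNCaP libraries was sequenced as single-end reads, which the authors aligned with STAR to GRCh38 and counted per gene with featureCounts. The file the authors deposited holds 1 value per gene and library, a signal of counts divided by a factor per library on a scale of about 1000000 counts per library (CPM). All values (100%) came out as whole reads (tolerance 0.01), and the columns sum to 1053406 to 1078567 with DMSO and 985580 to 1008992 with enzalutamide. Values of log2(CPM + 0.5) were tested with limma 3.58.1 with a mean-variance trend (R 4.3.3), in the 17046 genes whose mean was 0.5 CPM or more, adjusted by Benjamini-Hochberg over all of them, with a threshold of 0.05. edgeR 4.0.16 and DESeq2 1.42.0 on the recovered reads, other scalings, filters and pseudocounts, a replicate block, a GC trend, each DMSO label series alone and each library left out were alternatives. On simulated data limma recovered 200 of 200 genes changed 2-fold, and called 20 of 16794 unchanged genes. Genes at the lowest counts were not among those changed, and as many were raised as lowered. The recovery therefore says nothing of smaller changes, of the lowest counts or of library scaling.

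Groups came from the labels, 10 libraries with DMSO and 5 with enzalutamide, whereas the written methods assign 10 to the combination and 5 to R1881. The study calls its replicates biological, and p-values measure the spread between these libraries. Pairs of members were tested with a two-sided exact permutation test. Gene positions, overlaps and canonical transcript lengths came from GENCODE 44, in which 85.8% of the table's genes were found, and promoters from RefSeq. All 38 members are named, and of every other list the 3 lowest and 3 highest genes past the threshold, as many as there were. Some genes of the check and marker lists are not reported here. The members and lists were chosen with earlier results of these data known.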

Additional observations from a re-analysis of the deposited data

Results flagged for a closer look

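Of 78 groups of values examined (38 members and the reads per library, each in both treatments), 3 held a library far from the others by Dixon's criterion, and chance would give about 1 in 20 groups, or 3.9. PDIA3 was lowest in enzalutamide replicate 2, at 695 CPM against 762 CPM in the nearest library. SYVN1 was highest in the same library, at 46.7 CPM against 41.3 CPM in the nearest. That library's deviations from the mean over both groups had a Spearman correlation with GC content of 0.332 across genes. This was the highest of the enzalutamide libraries (the others -0.25 to -0.0307) and within the range over the DMSO libraries (-0.436 to 0.598). Without enzalutamide replicate 2, PDIA3 and SYVN1 were lower by log2 fold changes of -0.32 and -0.70. The reads per library stood apart in enzalutamide replicate 5, with 25416052 reads against 22329140 in the next.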

How the results depend on the processing

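Under 28 alternatives, 15 of which left out 1 library, 32 of the 38 members kept their direction and their call, and ATF4, ATF6, EDEM2, OS9, SEL1L and TRIB3 did not. The number of lower members ranged from 30 to 33, and of those lower at least 2-fold from 6 to 8. The number of higher members was 2 in place of 1 with genes under a mean of 5 CPM left out, with TMM or median-ratio factors, with DESeq2 and with DMSO libraries 51 to 55 only, and 3 with library totals of 1000000, with edgeR and with the GC trend removed, by the addition of OS9 and, for the last 3, ATF6. It was 1 to 2 with 1 library left out. ATF4, which passed under none of the alternatives, changed sign to 0.0591 with library totals of 1000000, 0.008 with edgeR and 0.0124 with DMSO libraries 51 to 55 only. The lower call was lost for SEL1L, TRIB3 and EDEM2 with library totals of 1000000 (EDEM2 adjusted p = 0.0505). TRIB3 also lost it with edgeR, with DMSO libraries 51 to 55 only and with the GC trend removed, SEL1L with edgeR and with 71 to 75 only, and EDEM2 with 51 to 55 only. Scaling to library totals of 1000000 moved the median of all genes from -0.01 to 0.08 and gave 4288 lower and 6641 higher genes, against 5577 and 5083. Of the pairs, 25 of 30 were the same under 19 alternatives. CALR minus CANX (-0.0347) and DERL1 minus DERL2 (0.0203) changed sign with DMSO libraries 71 to 75 only, neither passing. DERL1 minus DERL2 passed with 51 to 55 only (-0.107), where P4HB minus PDIA3, P4HB minus PDIA4 and PDIA4 minus PDIA6 did not, and P4HB minus PDIA4 did not with 71 to 75 only. The cause of these changes was not tested.

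Replicate numbers are shared between the groups but did not pair the libraries (correlations of deviations from -0.0678 to 0.0739). With a replicate block 33 members were lower and 1 higher, the call of KRTCAP2 was lost (0.23), and over all genes 5268 were lower and 4775 higher. Precision at this depth was least certain for DERL3, SDF2L1 and PPP1R15A, which had the fewest reads of the members.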
